A study of Mus musculus with 8 samples.

Results

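The genes described here are 40 genes of mitosis and cell cycle control, followed in mouse liver across age and strain. They were found on the arrays by gene name or by an older name of the same gene, 72 probes in all, and each gene was represented by its brightest probe over the 4 groups: 17 genes had 1 probe and 23 had several. Of the 40 genes, 39 entered the test, among 17049 genes tested in all. Ttk, a kinase of the spindle checkpoint, did not, because it was well above background on only 1 array of each 4-week group. Total RNA of liver was measured on 8 one-colour arrays, 2 in each of 4 groups: KKAy mice at 11 weeks, KKAy mice at 4 weeks, C57BL/6J mice at 11 weeks and C57BL/6J mice at 4 weeks. KKAy is a strain prone to obesity and diabetes through the yellow agouti allele on the KK background, and its samples are labelled as diabetes at both ages. C57BL/6J is a widely used inbred strain, and its samples are labelled as normal. All mice were kept on standard chow and were fasted overnight, and the sources used here do not give their sex.

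A dividing cell passes through G1, in which D-type and E-type cyclins with their kinases commit it to replication, through S and G2, in which DNA is copied and mitotic proteins build up, and through M, in which chromosomes are lined up, checked and pulled apart before the cell is cut into a pair of daughters. Transcripts of the S, G2 and M genes are made mainly in cycling cells, while many G1 cyclins and the inhibitors of cyclin-dependent kinases (CDK) are also made in resting cells. In rodents, hepatocytes still divide as the liver grows with the body after weaning, and in the adult liver nearly all hepatocytes rest.

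Levels are given as log2 of the processed signal relative to the 75th percentile of the same array, so that 0 is the signal of that percentile. Levels of different genes come from different probes and are not set against each other. The 75th percentile lay between 491.6 and 1241 fluorescence units, 56.3% to 66.7% of spots were well above background, and the 2 arrays of a group differed by a median SD of 0.127 to 0.223 over all genes and of 0.174 to 0.282 over the 40 genes. All 5 hepatocyte markers, such as Alb and Apoa1, were well above background on all 8 arrays. The 11-week groups shared 1 slide and the 4-week groups the other slide, so an effect of age and one of slide cannot be told apart, and strain goes with the position on the slide. Nothing in the labels says whether the 2 samples of a group are 2 animals, so the p-values below reflect the spread of these arrays alone, and that spread may be technical. In whole liver, fewer cells of a type and less RNA per cell cannot be told apart.

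Most of the 40 genes were lower at 11 weeks than at 4 weeks, in both strains. In KKAy liver 31 of the 39 genes tested fell and 1 rose, where 10.5% of all genes tested fell, 8.0% rose and 18.5% did either (adjusted p under 0.05 by limma, with Benjamini-Hochberg adjustment over all genes tested). In C57BL/6J liver 29 fell and 0 rose (1, Ccnf, was higher at an unadjusted p under 0.05 by limma), where 6.15% of all genes tested fell, 1.99% rose and 8.14% did either. A gene tested only because it was above background at 4 weeks is more likely to be lower at 11 weeks, and 6 of the 39 (Cdc6, Melk, Aurkb, Bub1, Kif11 and Anln) entered through a 4-week group alone. Without these 6, 28 of 33 genes fell in KKAy and 25 of 33 in C57BL/6J, and of the 27 genes above background on all 8 arrays 23 fell in KKAy and 20 in C57BL/6J. With all 39 genes, a set of 27 fell in both strains, and 4 further genes (Anln, Ccnd1, Ccnf and Cdkn1a) passed the test in KKAy only and 2 (Cdc6 and Melk) in C57BL/6J only. The 27 genes were left with a median of 14.4% of their 4-week signal in KKAy liver and 14.1% in C57BL/6J liver at 11 weeks, or 19.7% and 14.3% with genes lost in background at 11 weeks set at the smallest decline their signals allow. Without the genes lost in background on both 11-week arrays of the strain, the share left ran from 8.34% for Cdkn3 to 65.9% for Nek2 in KKAy liver (23 genes) and from 8.01% for Ccnb1 to 50.3% for Plk4 in C57BL/6J liver (25 genes).

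**Figure D1:**
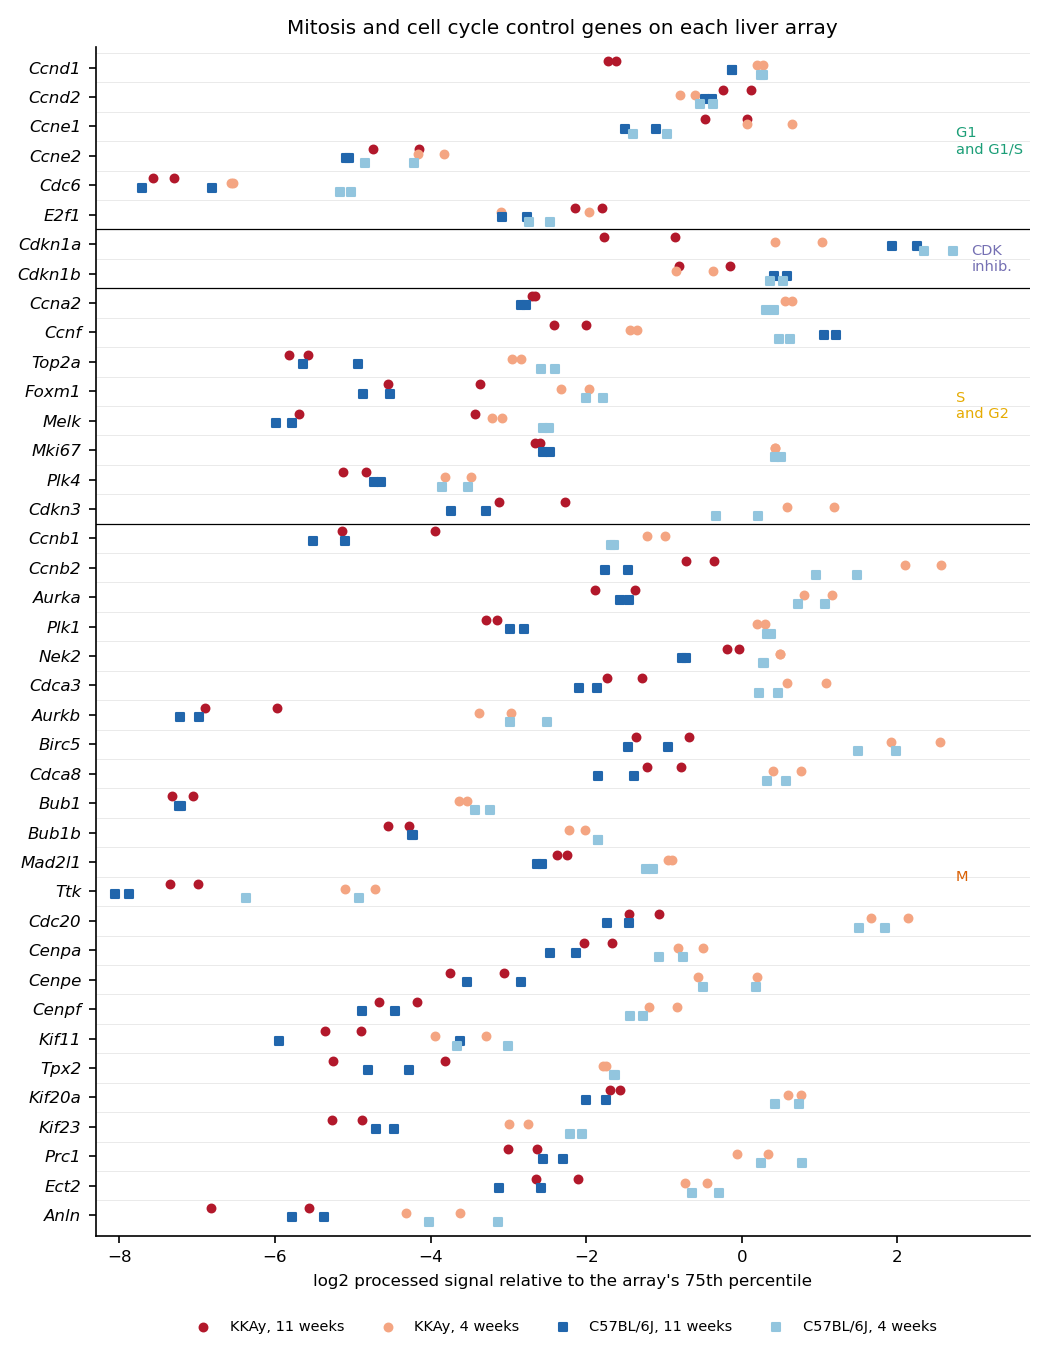
Level of the 40 genes on each of the 8 arrays, with log2 processed signal relative to the array's 75th percentile on the horizontal axis and genes grouped by phase down the page. Each mark is 1 array, red for KKAy at 11 weeks, orange for KKAy at 4 weeks, dark blue for C57BL/6J at 11 weeks and light blue for C57BL/6J at 4 weeks; for Mki67 the dark marks lie between -2.66 and -2.46 and the light marks between 0.42 and 0.51.

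The medians below describe the decline by phase, and differences between phases were not tested. Over the 24 genes of M phase the median log2 change with age was -2.48 in KKAy and -2.45 in C57BL/6J liver, and 22 and 21 of the 23 tested genes fell. The 8 genes of S and G2 had medians of -2.31 in KKAy and -2.89 in C57BL/6J, and 7 of the 8 fell in each strain. The 6 genes of G1 and of entry into S had medians of -0.50 and -0.35, and 1 of them fell in each strain, Ccnd1 in KKAy and Cdc6 in C57BL/6J. The pair of CDK inhibitors had medians of -0.96 and -0.19, and Cdkn1a fell in KKAy. Over all 40 genes the median was -2.25 in KKAy and -2.40 in C57BL/6J, beside 0.10 and 0.08 over all 27596 genes with a probe. With the genes that were lost in background at 11 weeks set at the smallest decline their signals allow, the medians of the 40 genes were -2.01 and -2.40 and those of the M genes -2.30 and -2.44. When background was modelled with the normexp method, which adds a fixed offset to every signal and so draws dim signals together, the medians of the 40 genes were -1.07 in KKAy and -1.18 in C57BL/6J.

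**Figure D2:**
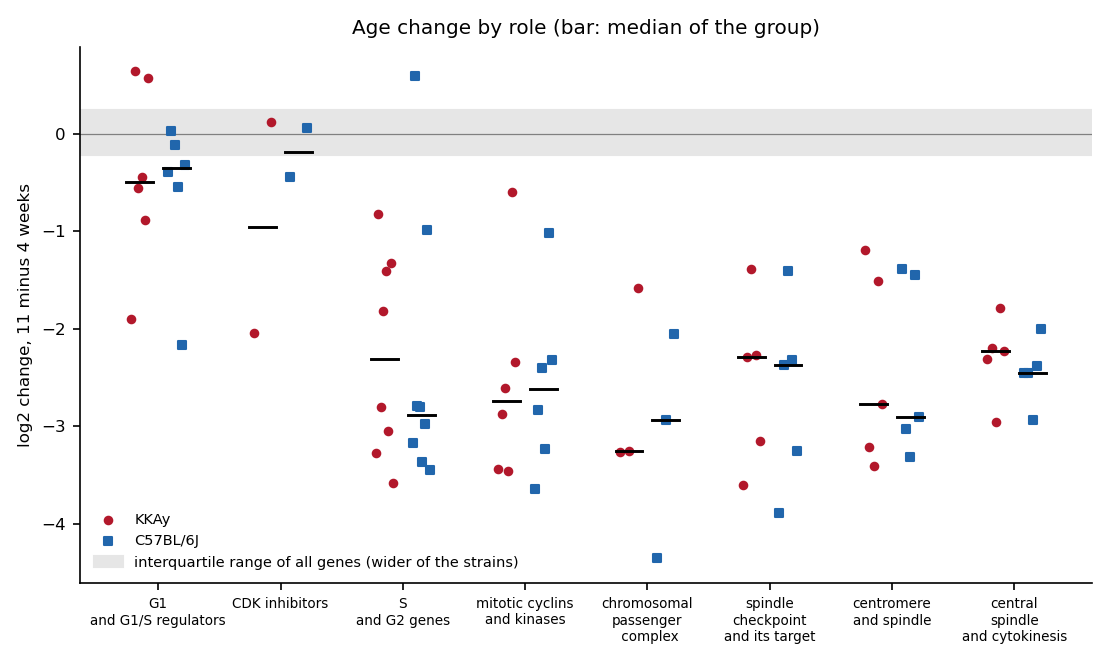
Log2 change from 4 to 11 weeks for each of the 40 genes by role, with KKAy (red circles) left of C57BL/6J (blue squares), the median of each role as a bar, and the interquartile range of all genes as a grey band, the wider of the strains on each side (-0.22 to 0.24). Ttk is drawn although it was not tested; all values of the 5 M-phase roles lie below the band, and those of the G1 and G1/S genes lie on both sides of 0.

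Promoters of 6 genes are shown to set mitotic genes that fell in both strains beside genes of an earlier step: Plk1, Bub1, Cdc20 and Ccnb2 on the one side, and Cdc6 and Ccne1, genes of the G1 to S step. Each is the window of 250 bases before to 50 bases after the start of the gene in RefSeq on GRCm38.p6, printed 5′ to 3′ on the gene's strand: Plk1 at chr7:122159185-122159484 (plus strand), Bub1 at chr2:127831810-127832109 (minus strand), Cdc20 at chr4:118437294-118437593 (minus strand), Ccnb2 at chr9:70421505-70421804 (minus strand), Cdc6 at chr11:98907901-98908200 (plus strand), Ccne1 at chr7:38107441-38107740 (minus strand). Capitals mark 3 motifs searched on both strands: the cell cycle genes homology region (TTTGAA or TTCGAA), the CCAAT box (CCAAT), and an E2F site (TTTGGCGC, TTTCCCGC, TTTCGCGC or TTTGCCGC).
Plk1: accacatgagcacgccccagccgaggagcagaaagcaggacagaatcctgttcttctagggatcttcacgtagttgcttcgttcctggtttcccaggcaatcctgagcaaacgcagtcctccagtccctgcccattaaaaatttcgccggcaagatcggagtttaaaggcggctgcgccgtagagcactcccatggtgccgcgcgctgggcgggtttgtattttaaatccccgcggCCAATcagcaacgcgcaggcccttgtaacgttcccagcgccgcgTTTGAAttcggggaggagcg
Bub1: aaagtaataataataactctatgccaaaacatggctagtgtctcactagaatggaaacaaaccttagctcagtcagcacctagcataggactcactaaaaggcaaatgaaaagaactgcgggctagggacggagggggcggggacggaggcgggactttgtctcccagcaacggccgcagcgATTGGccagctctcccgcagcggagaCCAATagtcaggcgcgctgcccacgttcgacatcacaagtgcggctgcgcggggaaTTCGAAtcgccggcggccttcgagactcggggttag
Cdc20: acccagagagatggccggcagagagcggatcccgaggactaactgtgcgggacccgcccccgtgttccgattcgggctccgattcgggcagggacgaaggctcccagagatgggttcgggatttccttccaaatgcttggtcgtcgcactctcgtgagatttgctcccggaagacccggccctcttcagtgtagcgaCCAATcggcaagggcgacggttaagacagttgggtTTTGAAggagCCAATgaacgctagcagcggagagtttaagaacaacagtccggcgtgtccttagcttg
Ccnb2: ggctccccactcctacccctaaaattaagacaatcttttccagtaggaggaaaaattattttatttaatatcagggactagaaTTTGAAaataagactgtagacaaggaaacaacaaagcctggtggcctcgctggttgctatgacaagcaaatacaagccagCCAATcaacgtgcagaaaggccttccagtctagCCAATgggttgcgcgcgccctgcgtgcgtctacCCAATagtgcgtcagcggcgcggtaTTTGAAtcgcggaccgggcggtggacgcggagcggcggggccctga
Cdc6: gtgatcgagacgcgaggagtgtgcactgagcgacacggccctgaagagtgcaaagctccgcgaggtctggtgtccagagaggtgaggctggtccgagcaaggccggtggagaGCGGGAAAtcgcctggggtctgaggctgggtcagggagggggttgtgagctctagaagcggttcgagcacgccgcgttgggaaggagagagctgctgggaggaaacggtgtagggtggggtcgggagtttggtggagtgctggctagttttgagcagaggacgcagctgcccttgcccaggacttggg
Ccne1: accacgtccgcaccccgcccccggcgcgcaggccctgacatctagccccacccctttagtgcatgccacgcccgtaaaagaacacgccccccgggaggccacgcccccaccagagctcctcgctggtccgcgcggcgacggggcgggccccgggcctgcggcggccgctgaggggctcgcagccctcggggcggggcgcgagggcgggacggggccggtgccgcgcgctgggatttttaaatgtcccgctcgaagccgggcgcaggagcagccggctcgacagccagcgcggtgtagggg

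Of the 40 genes, 32 were in the promoter table. The homology region, which is known in human and mouse cells as a site read by the complex that silences late cell cycle genes in resting cells, was found in 16 of 21 promoters of M genes (76.2%) and in 4 of 6 of S and G2 genes (66.7%), against 21.7% of the 27025 genes in the table. The CCAAT box, bound by the factor NF-Y, was found in 18 of 21 M genes (85.7%) and 4 of 6 S and G2 genes, against 41.1% of all genes. Neither motif was found in the 3 promoters of G1 and G1/S genes in the table (Ccne1, Cdc6 and E2f1), and the E2F letters were found in 1 of those 3, Cdc6, against 2.61% of all genes. The CCAAT box was also found in 1 of the 2 CDK inhibitors, Cdkn1b. The mitotic promoters printed above all had both motifs, but motif and decline did not always go together. Birc5, Mad2l1 and Plk4, which fell in both strains, had neither motif, while Ccnf, which did not fall in C57BL/6J, had both. All of these are matches of letters in a window, not measured binding sites.

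Among the S and G2 genes, 6 fell in both strains, and Ccnf and Melk did not. Mki67, the nuclear protein used to mark dividing cells in tissue, had levels of -2.59 and -2.66 at 11 weeks against 0.42 and 0.42 at 4 weeks in KKAy liver. Its C57BL/6J levels were -2.55 and -2.46 at 11 weeks against 0.43 and 0.51 at 4 weeks. Every 11-week array lay far below every 4-week array, and at a given age the strains lay side by side. Mki67 fell by 3.05 in KKAy (SE 0.10, adjusted p = 9.52e-05 by limma) and fell by 2.98 in C57BL/6J (SE 0.10, adjusted p = 0.00025). Ccna2, the cyclin of S phase and of entry into mitosis, had levels of -2.66 and -2.69 at 11 weeks against 0.65 and 0.56 at 4 weeks in KKAy. At 11 weeks C57BL/6J liver had -2.77 and -2.84, against 0.41 and 0.31 at 4 weeks. The ages did not overlap, and Ccna2 was left with 10.3% of its 4-week signal in KKAy (adjusted p = 8.54e-05) and 11.1% in C57BL/6J (adjusted p = 0.00025).

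Cdkn3, a phosphatase that acts on cyclin-dependent kinases, fell by 3.58 in KKAy (SE 0.38, adjusted p = 0.00276) and fell by 3.45 in C57BL/6J (SE 0.38, adjusted p = 0.00475). Top2a, the topoisomerase that untangles replicated chromosomes, was not well above background at 11 weeks in KKAy, with levels of -5.57 and -5.81 against -2.83 and -2.95 at 4 weeks. Its signal there was at least 4.89-fold lower than at 4 weeks (adjusted p = 0.00162 by limma, measured means -5.69 and -2.89), and in C57BL/6J, where it stayed above background, it fell by 2.79 (SE 0.25, adjusted p = 0.00257). Plk4, the kinase that starts the copying of centrioles, was likewise lost in background in KKAy at 11 weeks, at least 2.52-fold lower (adjusted p = 0.00693, measured means -4.98 and -3.64), and fell by 0.99 in C57BL/6J (SE 0.19, adjusted p = 0.03). Leaving out any 1 of the 4 C57BL/6J arrays ended the Plk4 call in that strain (highest adjusted p 0.18), and with normexp Plk4 passed in neither strain. Foxm1, the transcription factor that switches on genes of G2 and M, fell by 1.82 in KKAy (SE 0.39, adjusted p = 0.0268) and fell by 2.80 in C57BL/6J (SE 0.39, adjusted p = 0.0107). Its C57BL/6J call was lost without any 1 C57BL/6J array (highest adjusted p 0.0883) and its KKAy call without any array of either 4-week group or of C57BL/6J at 11 weeks (highest adjusted p 0.122).

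The other 2 genes of this phase did not fall in both strains. Melk, a kinase of dividing and stem cells, had levels of -5.68 and -3.43 at 11 weeks against -3.08 and -3.21 at 4 weeks in KKAy. C57BL/6J arrays read -5.99 and -5.77 at 11 weeks against -2.55 and -2.48 at 4 weeks. The 2 KKAy arrays at 11 weeks stood far apart, and 1 of them lay beside the 4-week arrays. Melk entered the test through the 4-week groups alone, so its lower signal at 11 weeks is a description rather than an independent result. Melk fell by 3.37 in C57BL/6J (SE 0.67, adjusted p = 0.0365), a call lost without any 1 C57BL/6J array or any 1 array of KKAy at 4 weeks (highest adjusted p 0.201), and its log2 change in KKAy was -1.41 (SE 0.67, adjusted p = 0.211). Ccnf, the F-box protein that limits centrosome copying and nucleotide supply, is described with the strain differences.

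All 6 mitotic cyclins and kinases fell in both strains. Plk1, the kinase that drives entry into and progress through mitosis, had levels of -3.28 and -3.14 at 11 weeks against 0.19 and 0.30 at 4 weeks in KKAy liver. The levels in C57BL/6J were -2.80 and -2.98 at 11 weeks against 0.32 and 0.37 at 4 weeks. The ages were far apart and the arrays of a group close together: Plk1 fell by 3.46 in KKAy (SE 0.12, adjusted p = 0.00011) and fell by 3.24 in C57BL/6J (SE 0.12, adjusted p = 0.00025). Ccnb1, the main cyclin of mitotic CDK1, had -3.94 and -5.14 against -1.22 and -0.99 in KKAy. In C57BL/6J liver it had -5.10 and -5.52 at 11 weeks against -1.69 and -1.65 at 4 weeks. It fell by 3.44 in KKAy (SE 0.38, adjusted p = 0.00343) and fell by 3.64 in C57BL/6J (SE 0.38, adjusted p = 0.0043), although 1 of the 2 KKAy arrays at 11 weeks was not well above background.

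Ccnb2, the second B-type cyclin, had levels of -0.72 and -0.36 at 11 weeks against 2.10 and 2.56 at 4 weeks in KKAy. Its C57BL/6J levels were -1.76 and -1.47 at 11 weeks against 0.96 and 1.48 at 4 weeks. It fell by nearly the same amount in both strains, with log2 changes of -2.87 in KKAy (SE 0.26, adjusted p = 0.00178) and -2.83 in C57BL/6J (SE 0.26, adjusted p = 0.00294), and KKAy lay above C57BL/6J at either age. Aurka, the kinase of the spindle poles, fell by 2.61 in KKAy (SE 0.23, adjusted p = 0.00163) and fell by 2.40 in C57BL/6J (SE 0.23, adjusted p = 0.00327). Cdca3, which triggers the breakdown of the mitosis-inhibiting kinase Wee1, had log2 changes of -2.34 in KKAy and -2.32 in C57BL/6J (SE 0.24 for each, adjusted p = 0.00248 and 0.00388). Nek2, a kinase that separates the centrosomes, had the smallest fall in KKAy among the 27 genes that fell in both strains: its levels were -0.03 and -0.19 at 11 weeks against 0.49 and 0.49 at 4 weeks in KKAy. At 11 weeks C57BL/6J liver had -0.77 and -0.71, against 0.28 and 0.29 at 4 weeks. It fell by 0.60 in KKAy (SE 0.10, adjusted p = 0.013) and fell by 1.02 in C57BL/6J (SE 0.10, adjusted p = 0.00373). The KKAy call was lost without either array of KKAy at 4 weeks or without replicate 2 of KKAy at 11 weeks (highest adjusted p 0.0738).

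The chromosomal passenger complex corrects faulty attachments of chromosomes to the spindle and guides the final cut. All 3 of its measured subunits passed as lower at 11 weeks in both strains, Aurkb with a limit given below. Aurkb, the kinase of the complex, had levels of -6.90 and -5.97 at 11 weeks against -3.38 and -2.96 at 4 weeks in KKAy. C57BL/6J arrays read -7.22 and -6.97 at 11 weeks against -2.98 and -2.50 at 4 weeks. Aurkb was not well above background on any 11-week array. It entered the test through the 4-week groups alone, so its lower signal at 11 weeks is a description rather than an independent result. Its signal was at least 4.03-fold lower at 11 weeks in KKAy (adjusted p = 0.00286, measured means -6.44 and -3.17) and at least 8.13-fold lower in C57BL/6J (adjusted p = 0.00196, measured means -7.10 and -2.74), and with normexp neither call held (adjusted p = 0.19 in KKAy and 0.0993 in C57BL/6J). Birc5, known as survivin, had -1.36 and -0.68 against 1.92 and 2.54 in KKAy. The levels in C57BL/6J were -1.46 and -0.95 at 11 weeks against 1.49 and 1.99 at 4 weeks. It fell by 3.25 in KKAy (SE 0.35, adjusted p = 0.00302) and fell by 2.94 in C57BL/6J (SE 0.35, adjusted p = 0.00617), and the C57BL/6J value did not pass without replicate 1 of C57BL/6J at 11 weeks (adjusted p = 0.0559). Cdca8, known as borealin, fell by 1.58 in KKAy (SE 0.24, adjusted p = 0.00909) and fell by 2.06 in C57BL/6J (SE 0.24, adjusted p = 0.00575), and its KKAy call was lost without replicate 2 of KKAy at 4 weeks (adjusted p = 0.0543).

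The spindle checkpoint holds a cell in metaphase until every chromosome is attached, by blocking Cdc20, the activator of the anaphase-promoting complex. Cdc20 had levels of -1.45 and -1.06 at 11 weeks against 1.66 and 2.14 at 4 weeks in KKAy. In C57BL/6J liver it had -1.73 and -1.44 at 11 weeks against 1.5 and 1.84 at 4 weeks. The ages were separated in both strains, and Cdc20 was left with 11.2% of its 4-week signal in KKAy (adjusted p = 0.000992 by limma) and 10.4% in C57BL/6J (adjusted p = 0.00155). Bub1, a kinase that recruits the checkpoint to the kinetochore, had -7.32 and -7.05 against -3.63 and -3.54 in KKAy. Its C57BL/6J levels were -7.23 and -7.21 at 11 weeks against -3.23 and -3.43 at 4 weeks. Since Bub1 was lost in background on all 11-week arrays, its signal is given as at least 3.02-fold lower in KKAy (adjusted p = 0.00013, measured means -7.19 and -3.58) and at least 5.40-fold lower in C57BL/6J (adjusted p = 0.00025, measured means -7.22 and -3.33). With normexp the KKAy call for Bub1 was lost (adjusted p = 0.0862). Like Aurkb, Bub1 entered the test through the 4-week groups alone, so its lower signal is likewise a description rather than an independent result.

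Bub1b, the checkpoint protein BubR1, fell by 2.29 in KKAy (SE 0.13, adjusted p = 0.000431) and fell by 2.37 in C57BL/6J (SE 0.13, adjusted p = 0.000737). Mad2l1, which binds and blocks Cdc20, had log2 changes of -1.39 in KKAy and -1.41 in C57BL/6J (SE 0.10 for each, adjusted p = 0.000938 and 0.00155). Ttk, the kinase Mps1, had levels of -6.99 and -7.35 at 11 weeks against -4.71 and -5.10 at 4 weeks in KKAy. At 11 weeks C57BL/6J liver had -8.05 and -7.88, against -4.92 and -6.37 at 4 weeks. It was above background on 1 array of each 4-week group and on no 11-week array, which gives a signal at least 1.21-fold lower in KKAy and at least 1.09-fold lower in C57BL/6J, with no test.

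Of the 5 genes of centromere and spindle, 4 fell in both strains, all but Kif11. Cenpf, a protein of the outer kinetochore, had levels of -4.67 and -4.18 at 11 weeks against -1.19 and -0.83 at 4 weeks in KKAy. C57BL/6J arrays read -4.88 and -4.45 at 11 weeks against -1.43 and -1.26 at 4 weeks. It fell by 3.41 in KKAy (SE 0.24, adjusted p = 0.000806) and fell by 3.32 in C57BL/6J (SE 0.24, adjusted p = 0.00155). Cenpe, the kinesin that carries chromosomes to the spindle equator, had log2 changes of -3.21 in KKAy and -3.02 in C57BL/6J (SE 0.42 for each, adjusted p = 0.00573 and 0.011), and the C57BL/6J call was lost without replicate 1 at 11 weeks or replicate 2 at 4 weeks (highest adjusted p 0.0825). Tpx2, which activates Aurka on the spindle, fell by 2.77 in KKAy (SE 0.46, adjusted p = 0.0118) and fell by 2.91 in C57BL/6J (SE 0.46, adjusted p = 0.0166). Its C57BL/6J call was lost without any 1 C57BL/6J array (highest adjusted p 0.12) and its KKAy call without either KKAy array at 4 weeks (highest adjusted p 0.0612). Cenpa, the histone that marks the centromere, fell by 1.19 in KKAy (SE 0.21, adjusted p = 0.0153) and fell by 1.39 in C57BL/6J (SE 0.21, adjusted p = 0.0153). Its C57BL/6J call was lost without any 1 C57BL/6J array (highest adjusted p 0.111), and its KKAy call without replicate 1 at 11 weeks or replicate 2 at 4 weeks (highest adjusted p 0.0821).

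Kif11, the motor that pushes the spindle poles apart, passed in neither strain, alone among the 23 tested genes of M phase. It had levels of -4.90 and -5.35 at 11 weeks against -3.29 and -3.94 at 4 weeks in KKAy. The levels in C57BL/6J were -3.62 and -5.95 at 11 weeks against -3.00 and -3.65 at 4 weeks. The 2 arrays of C57BL/6J at 11 weeks lay far apart, and the log2 changes were -1.51 in KKAy (SE 0.75, adjusted p = 0.227) and -1.45 in C57BL/6J (SE 0.75, adjusted p = 0.35).

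The 5 genes of the central spindle and of cytokinesis all fell in KKAy, and 4 of them in C57BL/6J. Prc1, which bundles the microtubules between separating chromosomes, had levels of -3.00 and -2.64 at 11 weeks against -0.06 and 0.34 at 4 weeks in KKAy. In C57BL/6J liver it had -2.55 and -2.29 at 11 weeks against 0.25 and 0.77 at 4 weeks. It fell by 2.96 in KKAy (SE 0.25, adjusted p = 0.00139) and fell by 2.93 in C57BL/6J (SE 0.25, adjusted p = 0.00235). Kif20a and Kif23, kinesins of the central spindle, had log2 changes of -2.31 and -2.19 in KKAy and of -2.46 and -2.45 in C57BL/6J, with SE of 0.16 for Kif20a and 0.18 for Kif23. Ect2, which switches on the small GTPase RhoA at the cleavage site, fell by 1.79 in KKAy (SE 0.27, adjusted p = 0.00877) and fell by 2.39 in C57BL/6J (SE 0.27, adjusted p = 0.00521), and its KKAy call was lost without replicate 2 of KKAy at 4 weeks (adjusted p = 0.0544). Anln, a scaffold of the contractile ring, was not above background on any 11-week array. It entered the test through the 4-week groups alone, so its lower signal at 11 weeks is a description rather than an independent result. Anln was at least 2.32-fold lower in KKAy (adjusted p = 0.0334, measured means -6.19 and -3.97). That call was lost without either KKAy array at 4 weeks, without replicate 2 of KKAy at 11 weeks or without either C57BL/6J array at 11 weeks (highest adjusted p 0.146), and in C57BL/6J Anln did not pass (adjusted p = 0.0763, measured means -5.58 and -3.58).

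The G1 and G1/S genes mostly did not pass with age. Ccne1, a cyclin that starts DNA replication, had levels of -0.47 and 0.07 at 11 weeks against 0.07 and 0.64 at 4 weeks in KKAy. Its C57BL/6J levels were -1.5 and -1.1 at 11 weeks against -1.40 and -0.97 at 4 weeks. Its ages met or overlapped, with log2 changes of -0.56 (SE 0.30, adjusted p = 0.263) and -0.12 (SE 0.30, adjusted p = 0.893). Ccne2, its close relative, had log2 changes of -0.44 in KKAy and -0.55 in C57BL/6J (SE 0.28 for each, adjusted p = 0.347 and 0.357). E2f1, a transcription factor that drives genes of replication, had -2.14 and -1.79 against -3.10 and -1.97 in KKAy. At 11 weeks C57BL/6J liver had -3.08 and -2.76, against -2.74 and -2.47 at 4 weeks. The KKAy arrays at 4 weeks differed by more than a log2 unit between themselves, and E2f1 passed in neither strain (adjusted p = 0.365 and 0.73).

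Ccnd2, a D-type cyclin, was the gene that rose: it had levels of -0.24 and 0.11 at 11 weeks against -0.79 and -0.61 at 4 weeks in KKAy. C57BL/6J arrays read -0.47 and -0.38 at 11 weeks against -0.53 and -0.37 at 4 weeks. It was higher by 0.64 in KKAy at 11 weeks (SE 0.16, adjusted p = 0.0398) and its log2 change in C57BL/6J was 0.03 (SE 0.16, adjusted p = 0.952). The call in KKAy was lost when any 1 array was left out other than replicate 1 of KKAy at 11 weeks (highest adjusted p 0.174). Cdc6, which loads the replication helicase onto DNA, was above background on both arrays of C57BL/6J at 4 weeks and on no other array. It entered the test through that group alone, so its lower signal in the other groups is a description rather than an independent result. It was at least 1.6-fold lower in C57BL/6J at 11 weeks than at 4 weeks (adjusted p = 0.00959, measured means -7.26 and -5.09), a call lost without either C57BL/6J array at 4 weeks (highest adjusted p 0.0685) and with normexp, where its adjusted p was 0.996.

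**Figure D3:**
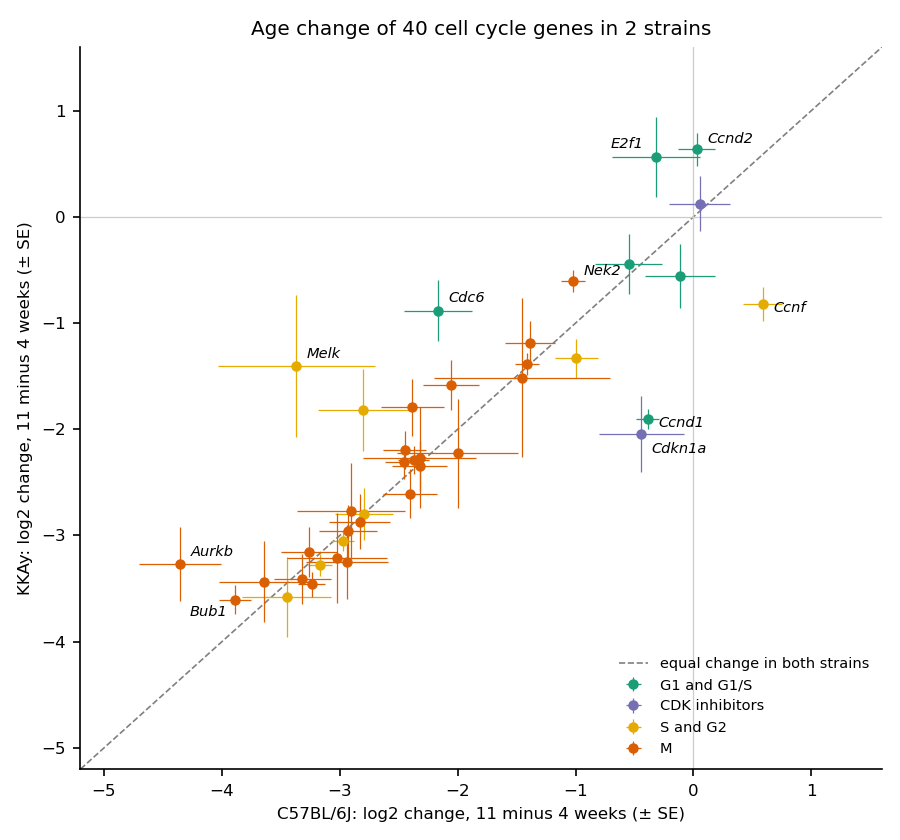
Log2 change from 4 to 11 weeks of the 40 genes in KKAy liver (vertical axis) and in C57BL/6J liver (horizontal axis), with SE bars from the fit, coloured by phase; the dashed line is equal change. Ttk is drawn although it was not tested, and Ccnd1 (-1.90 in KKAy, -0.39 in C57BL/6J) and Ccnf (-0.82 in KKAy, 0.59 in C57BL/6J) lie off the line with short bars.

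Whether the decline differed between strains was tested as the KKAy change minus the C57BL/6J change. It passed for 2 of the 39 genes, Ccnd1 and Ccnf, both below 0, where 1.81% of all genes tested passed below 0, 2.02% above and 3.82% either way. For the 27 genes that fell in both strains it had a median of 0.02 and ran from -0.34 to 1.09, with adjusted p from 0.202 to 0.997. These 27 were picked because they passed in both strains, which tends to leave out genes whose declines differ. Over all 40 genes it had a median of 0.04 and ran from -1.60 for Cdkn1a to 1.96 for Melk. The 95% interval of that difference reached 0.83 log2 units to either side at the median gene and from 0.34 to 1.58 across the 27 genes, so differences within these bounds are not resolved. Among the narrower intervals were those of Mki67, from -0.41 to 0.26, of Ccna2, from -0.46 to 0.24, and of Mad2l1, from -0.34 to 0.38. For Nek2 the interval ran from 0.07 to 0.77, and the difference did not pass after adjustment (adjusted p = 0.202). Aurkb gave the largest difference of the 27, 1.09, between values that were both below background at 11 weeks. The number of genes that passed was 0 without either array of C57BL/6J at 11 weeks, 3 without replicate 1 of KKAy at 11 weeks and 1 without each other array.

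Ccnd1, the D-type cyclin that links growth signals to the cell cycle, had levels of -1.61 and -1.72 at 11 weeks against 0.28 and 0.20 at 4 weeks in KKAy. The levels in C57BL/6J were -0.13 and -0.13 at 11 weeks against 0.25 and 0.27 at 4 weeks. The 4-week arrays of both strains lay together, the 11-week arrays of C57BL/6J a little lower, and those of KKAy well below all others. Ccnd1 fell by 1.90 in KKAy (SE 0.10, adjusted p = 0.000288) and its log2 change in C57BL/6J was -0.39 (SE 0.10, adjusted p = 0.0723), and the difference of these changes was -1.51 (SE 0.14, 95% interval -1.85 to -1.17, adjusted p = 0.00689 by limma). Without replicate 1 or replicate 2 of C57BL/6J at 11 weeks the call for the difference was lost (adjusted p = 0.0594 and 0.063). At 11 weeks Ccnd1 was lower in KKAy than in C57BL/6J by -1.54 on the log2 scale (SE 0.10, adjusted p = 0.00036), while at 4 weeks the strains differed by -0.03 (SE 0.10, adjusted p = 0.923). Only 1 probe read Ccnd1, so the alternative runs could not compare its probes.

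Ccnf had levels of -2.0 and -2.42 at 11 weeks against -1.34 and -1.44 at 4 weeks in KKAy. In C57BL/6J liver it had 1.21 and 1.05 at 11 weeks against 0.62 and 0.47 at 4 weeks. The ages did not overlap in either strain, and the 11-week arrays lay lower in KKAy and higher in C57BL/6J. Ccnf fell by 0.82 in KKAy (SE 0.16, adjusted p = 0.0222) and its log2 change in C57BL/6J was 0.59 (SE 0.16, adjusted p = 0.0983), and the difference was -1.41 (SE 0.23, 95% interval -1.98 to -0.84, adjusted p = 0.0354). That difference lost its call when any 1 array was left out other than replicate 1 of KKAy at 11 weeks (highest adjusted p 0.173), and the fall in KKAy lost its call without 5 of the 8 arrays in turn: both of C57BL/6J at 11 weeks, both of KKAy at 4 weeks and replicate 2 of KKAy at 11 weeks (highest adjusted p 0.108). KKAy lay below C57BL/6J by -3.34 at 11 weeks (SE 0.16, adjusted p = 0.000173) and by -1.94 at 4 weeks (SE 0.16, adjusted p = 0.00123), and both calls held in every alternative run. Ccnf was read by 1 probe, so none of the runs could compare probes of this gene.

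The CDK inhibitors hold cells out of the cycle. Cdkn1a, the inhibitor p21, had levels of -0.86 and -1.77 at 11 weeks against 1.03 and 0.42 at 4 weeks in KKAy. Its C57BL/6J levels were 2.25 and 1.93 at 11 weeks against 2.72 and 2.34 at 4 weeks. At both ages, KKAy arrays lay below all C57BL/6J arrays, and the KKAy arrays at 11 weeks lay lowest. Cdkn1a was lower in KKAy by -3.41 at 11 weeks (SE 0.36, adjusted p = 0.00195) and by -1.81 at 4 weeks (SE 0.36, adjusted p = 0.0227). Like Ccnf, Cdkn1a was read by 1 probe, so no alternative run could compare its probes. With age it fell by 2.04 in KKAy (SE 0.36, adjusted p = 0.0149) and its log2 change in C57BL/6J was -0.44 (SE 0.36, adjusted p = 0.588), and the difference of these changes did not pass (-1.6, SE 0.51, adjusted p = 0.174). The 11-week strain call held in every alternative run, the fall in KKAy was lost without replicate 1 of KKAy at 4 weeks (adjusted p = 0.0742), and the 4-week strain call was lost without 5 of the 8 arrays in turn, all but both KKAy arrays at 11 weeks and replicate 1 of KKAy at 4 weeks (highest adjusted p 0.122).

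Cdkn1b, the inhibitor p27, had levels of -0.15 and -0.81 at 11 weeks against -0.37 and -0.84 at 4 weeks in KKAy. At 11 weeks C57BL/6J liver had 0.58 and 0.42, against 0.53 and 0.36 at 4 weeks. It did not pass with age in KKAy or C57BL/6J (adjusted p = 0.798 and 0.944) and was lower in KKAy by -0.98 at 11 weeks (SE 0.26, adjusted p = 0.045) and by -1.05 at 4 weeks (SE 0.26, adjusted p = 0.0462). A second probe of Cdkn1b, also above background on all 8 arrays, went the other way between strains, by 0.31 at 11 weeks and 0.50 at 4 weeks, so its strain direction is not settled by these arrays. The 11-week call was also lost without any 1 array other than replicate 1 of KKAy at 11 weeks and the 4-week call without any 1 array other than those of KKAy at 11 weeks (highest adjusted p 0.209 and 0.207).

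**Figure D4:**
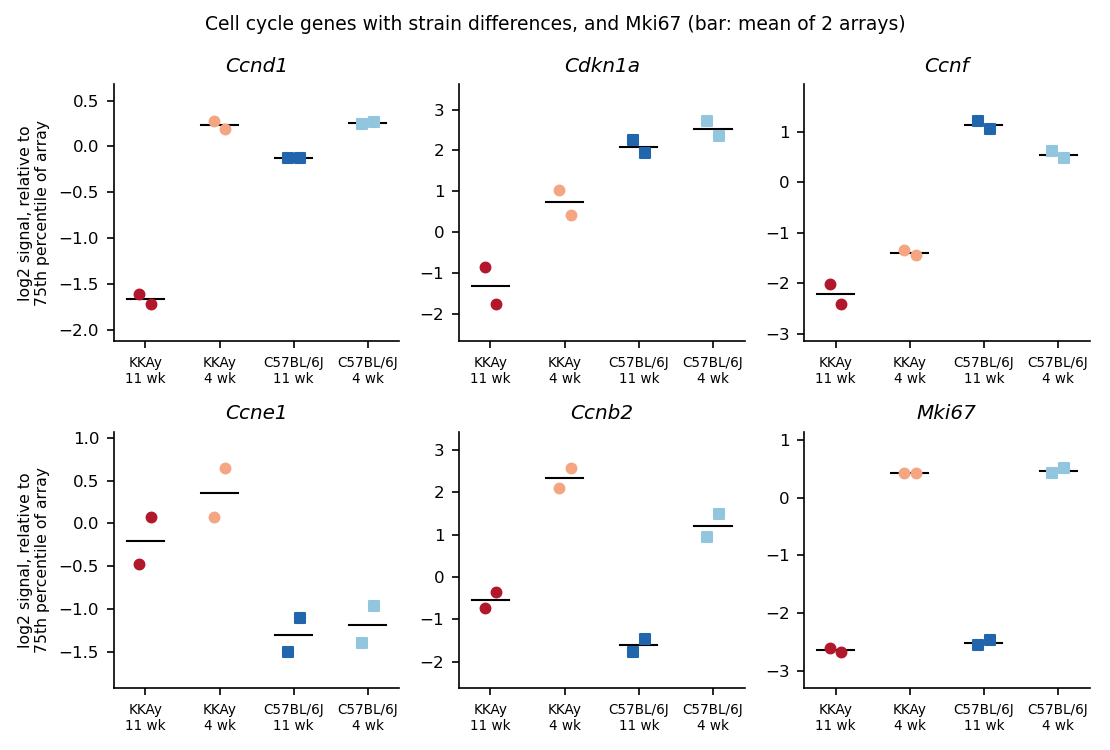
Level (log2 processed signal relative to the array's 75th percentile, vertical axis) of 5 genes with a strain difference and of Mki67 on each array, with the mean of 2 arrays as a bar and a separate vertical scale in each panel. Cdkn1a reads -0.86 and -1.77 in KKAy at 11 weeks and 2.25 and 1.93 in C57BL/6J at 11 weeks, and Mki67 differs by age but not past the threshold by strain.

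Between the strains at one age, the share of these genes that differed was near the share over all genes tested. At 11 weeks 4 of the 39 genes were lower in KKAy than in C57BL/6J and 3 were higher, where 11.7% of all genes tested were lower, 9.81% higher and 21.5% either. At 4 weeks 5 were lower and 2 higher, where 8.92% of all genes tested were lower, 6.5% higher and 15.4% either. The medians over the 40 genes were 0.21 at 11 weeks and -0.02 at 4 weeks, beside 0.16 and 0.14 over all 27596 genes with a probe. Over the 39 genes tested they were 0.18 and -0.025, beside -0.0064 and 0.019 over all genes tested. The 4-week count ranged from 1 to 8 as single arrays were left out: it was 1 without replicate 1 or 2 of C57BL/6J at 4 weeks or replicate 2 of KKAy at 4 weeks, and 3 without replicate 1 of KKAy at 4 weeks or either array of C57BL/6J at 11 weeks. The 11-week count was 3 without either array of C57BL/6J at 11 weeks.

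Besides Ccnd1, Ccnf, Cdkn1a and Cdkn1b, the strain calls concerned 5 genes. Ccne1 was higher in KKAy by 1.1 at 11 weeks (SE 0.30, adjusted p = 0.0496) and by 1.54 at 4 weeks (SE 0.30, adjusted p = 0.0209), its 4 KKAy arrays lying above all 4 C57BL/6J arrays. Ccnb2 was higher in KKAy by 1.07 at 11 weeks (SE 0.26, adjusted p = 0.0343) and by 1.12 at 4 weeks (SE 0.26, adjusted p = 0.038). Nek2 was higher by 0.63 at 11 weeks (SE 0.10, adjusted p = 0.00896), and at 4 weeks its difference was 0.20 (SE 0.10, adjusted p = 0.279). Kif23 was lower by -0.74 at 4 weeks (SE 0.18, adjusted p = 0.0434), and Cdc6, which entered the test through C57BL/6J at 4 weeks alone, was at least 1.16-fold lower in KKAy at 4 weeks (adjusted p = 0.0228, measured means -6.55 and -5.09).

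These 5 genes' strain calls depended on single arrays. The Ccne1 call at 11 weeks was lost without any 1 of the 8 arrays (highest adjusted p 0.241) and at 4 weeks without either C57BL/6J array or replicate 2 of KKAy at that age (highest adjusted p 0.115). The Ccnb2 call was lost at 11 weeks without any 1 array of that age (highest adjusted p 0.183) and at 4 weeks without any 1 array of that age or of C57BL/6J at 11 weeks (highest adjusted p 0.176), as was the Kif23 call (highest adjusted p 0.206). The Nek2 call was lost without either C57BL/6J array at 11 weeks (highest adjusted p 0.0789), and the Cdc6 call without any 1 array of the 4-week groups (highest adjusted p 0.115).

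Further probes of several genes were above background on both arrays of each 4-week group. The second probe of Mki67 had log2 differences with age of -3.49 in KKAy and -2.91 in C57BL/6J, that of Cdkn3 of -2.99 and -2.75, that of Kif20a of -2.49 and -2.60, and that of Kif23 of -2.64 and -2.26. That of Mad2l1 had -1.35 in KKAy and -1.39 in C57BL/6J and that of Cdca3 -1.80 and -1.95, in each case the same way as the probe used. At 11 weeks in KKAy the second probe of Mki67 was above background on 1 array and that of Kif23 on 0. Another probe of Cdkn3, above background on no array, had 0.11 in both strains. The 2 further probes of Ccnd2 also lay higher in KKAy at 11 weeks, by 0.55 and 0.44, and the second probe of Ccne1 was higher in KKAy by 0.57 at 11 weeks and 1.08 at 4 weeks.

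Other genes of the same processes were read beside these. Of 50 further mitosis genes, 37 fell in KKAy and 38 in C57BL/6J, with medians of -1.99 and -2.22, beside 10.5% and 6.15% of all genes tested that fell. Only 26 of the 50 were above background on all 8 arrays. Genes that entered the test through a 4-week group alone are more likely to be lower at 11 weeks. They were not counted apart here, so these counts are a description. Ncapg, a subunit of the condensin complex that packs chromosomes, fell by 3.20 in KKAy (SE 0.36, adjusted p = 0.0035) and fell by 3.05 in C57BL/6J (SE 0.36, adjusted p = 0.006). Racgap1, which with Kif23 forms the centralspindlin complex, fell by 3.59 in KKAy (SE 0.65, adjusted p = 0.016) and fell by 3.07 in C57BL/6J (SE 0.65, adjusted p = 0.043). The remaining named ones were below background at 11 weeks in both strains. They entered the test through 4-week groups alone, so their lower signal is a description rather than an independent result. Ckap2l, a spindle protein, was at least 3.91-fold lower in KKAy (adjusted p = 0.000288, measured means -6.96 and -3.21) and at least 10.5-fold lower in C57BL/6J (adjusted p = 0.000744, measured means -5.71 and -2.31). Depdc1a was at least 3.33-fold lower in KKAy (adjusted p = 0.00029, measured means -7.01 and -3.44) and at least 6.64-fold lower in C57BL/6J (adjusted p = 0.000384, measured means -7.20 and -3.03). In C57BL/6J, Kif18b, a kinesin that shortens microtubules, was at least 3.14-fold lower (adjusted p = 0.000716, measured means -7.87 and -4.12). Kif2c, another such kinesin, was at least 4.19-fold lower there (adjusted p = 0.0054, measured means -7.21 and -3.70). Hmmr, a spindle protein also known as a hyaluronan receptor, was at least 3.34-fold lower there (adjusted p = 0.00267, measured means -7.64 and -4.03).

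Of 31 further genes of G1/S control, 30 were tested, and 5 fell and 1 rose in each strain, with medians of 0.05 in both. Over all genes tested 10.5% fell and 8.0% rose in KKAy, and 6.15% fell and 1.99% rose in C57BL/6J. Those that fell, named after their values were seen, were Rbl1, E2f7, Myc, Cdkn1c and Cdkn2c in both strains. The gene that rose was Cdkn2b, the inhibitor p15, by 0.48 in KKAy (SE 0.12, adjusted p = 0.039) and by 0.92 in C57BL/6J (SE 0.12, adjusted p = 0.008). Of 16 target genes of p53, a list that bears on Cdkn1a, 2 rose in KKAy and 1, Btg2, fell in C57BL/6J with age. Between the strains, 6 of the 16 were higher in KKAy than in C57BL/6J at 11 weeks, where Cdkn1a itself was lower and 9.81% of all genes tested were higher. The median strain difference of the 16 genes, all tested, was 0.25 at 11 weeks. The same median was -0.0064 over all genes tested and 0.16 over all genes with a probe. At 4 weeks 2 of the 16 were higher and 1 was lower in KKAy, where 6.5% of all genes tested were higher and 8.92% lower. The 2 that rose with age in KKAy were Ccng1, a cyclin relative, by 0.48 (SE 0.12, adjusted p = 0.043), and Eda2r, a receptor of the tumour necrosis factor family. Eda2r had levels of -3.87 and -3.83 at 11 weeks against -5.89 and -6.74 at 4 weeks in KKAy. C57BL/6J arrays read -6.68 and -7.39 at 11 weeks against -5.70 and -5.82 at 4 weeks. It was well above background on both arrays of KKAy at 11 weeks only, at least 2.74-fold higher there than at 4 weeks (adjusted p = 0.0065, measured means -3.85 and -6.31). Eda2r entered the test through that group alone, so its higher signal there is a description rather than an independent result. That holds for its place among the 6 p53 targets higher in KKAy at 11 weeks and among the 2 that rose.

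Of 5 hepatocyte markers 1 fell and 1 rose in KKAy, with summed signals of 1108 to 1257 at 11 weeks against 1091 to 1286 at 4 weeks, and of 1508 to 1541 against 1059 to 1387 in C57BL/6J. Markers of other liver cells also moved with age. Beside all these counts, 10.5% of all genes tested fell and 8.0% rose in KKAy, and 6.15% fell and 1.99% rose in C57BL/6J. Summed signals are given in units of the 75th percentile of the array. Of 8 Kupffer cell and macrophage markers, all above background on all arrays, 4 fell in KKAy and 7 in C57BL/6J, and the sum was 33.0 to 35.1 in KKAy at 11 weeks against 53.2 to 61.1 at 4 weeks, and 59.1 to 65.4 against 143.7 to 173.1 in C57BL/6J. Of 10 lymphocyte markers 5 fell in each strain, with sums of 0.81 to 0.86 against 1.26 to 1.32 in KKAy and of 1.19 to 1.21 against 2.65 to 2.94 in C57BL/6J. Of 5 tested erythroid markers 3 fell in each strain and 1 rose in KKAy, with sums of 187.8 to 197.2 against 398.6 to 435.2 in KKAy and of 141.1 to 146.7 against 271.5 to 311.4 in C57BL/6J, while the erythroid markers Epb42 and Rhag were above background on no array.

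Sums at 11 weeks are again set against those at 4 weeks, and the counts stand beside the same shares of all genes tested. Of 7 stellate cell markers 6 fell in KKAy and 2 in C57BL/6J, with sums of 22.6 to 28.6 against 43.3 to 50.9 in KKAy and of 41.8 to 46.3 against 52.1 to 59.7 in C57BL/6J. Of 7 endothelial markers 4 fell in KKAy and 1 in C57BL/6J, with sums of 39.36 to 39.45 against 53.6 to 56.3 in KKAy and of 32.6 to 34.2 against 39.1 to 39.4 in C57BL/6J. Of 3 tested neutrophil markers 2 rose in KKAy, with sums of 5.52 to 7.69 against 2.76 to 3.72 in KKAy and of 1.24 to 1.59 against 1.81 to 2.37 in C57BL/6J, while Elane and Camp were above background on no array. Of 5 cholangiocyte markers 1 rose in C57BL/6J, with sums of 6.31 to 8.29 against 6.55 to 8.13 in KKAy and of 5.75 to 6.95 against 8.52 to 10.4 in C57BL/6J. Each sum is weighted to its brightest markers. The cholangiocyte sum mostly follows Spp1, by far the brightest of them. The change of Spp1 in C57BL/6J did not pass (log2 -0.71, SE 0.23, adjusted p = 0.145 by limma). Hbb-bt, a globin, fell by 1.39 in KKAy (SE 0.11, adjusted p = 0.0013) and fell by 1.12 in C57BL/6J (SE 0.11, adjusted p = 0.0038), and Hba-a1 had log2 changes of -1.68 in KKAy and -1.1 in C57BL/6J. Alas2, another erythroid marker, went the other way in KKAy, by 1.86 (SE 0.16, adjusted p = 0.0015 by limma). Its log2 change in C57BL/6J was 0.40 (adjusted p = 0.229), and Klf1 passed in neither strain (0.18 in KKAy and -0.02 in C57BL/6J). Cd5l, a protein of tissue macrophages, had log2 changes of -0.69 in KKAy and -1.46 in C57BL/6J. Clec4f, a lectin of Kupffer cells, fell by 0.96 in C57BL/6J and had a log2 change of -0.30 in KKAy (adjusted p = 0.133). The part of these cells in the decline of the cell cycle genes was not tested.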

How the data were processed

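Spot intensity was extracted by the authors with Agilent Feature Extraction 9.5.1.1, per the file headers, which subtracts background and gives the dimmest spots surrogate values. In the authors' deposited table, log2 values equal log2 processed signal minus 1 constant per array within 0.001 for 99.5% of probes, and served as an alternative. Here, control and flagged spots were left out, repeated spots averaged, and log2 processed signal taken relative to the 75th percentile of each array. No spot was saturated. A probe entered where both arrays of some group had it well above background, which left 25320 probes, and the brightest probe stood for a gene. Names came from a GRCm38.p6 table where accession or symbol matched. Of the 39 tested genes, 6 (Cdc6, Melk, Aurkb, Bub1, Kif11 and Anln) passed this filter only through a 4-week group.

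All 8 arrays entered 1 model of the 4 groups (limma 3.58.1, R 4.3.3, functions lmFit and eBayes; 4 residual and 1.92 prior degrees of freedom). Benjamini-Hochberg adjustment ran over the 17049 genes, with a threshold of 0.05. Where no array of a group was well above background, the fold is a lower bound, in which each dim array counts at its own signal or at the lowest signal well above background, whichever is higher. The scripts were tested on simulated data. The genes and lists were chosen with earlier results of these data known. All 40 genes are named, and of the other cell cycle genes the 4 largest changes past the threshold in each direction per age comparison. Of each marker list at most the 2 brightest are named, besides markers above background on no array and the erythroid markers Alas2 and Klf1. Alternatives were normexp background correction (offset 50), quantile normalization, the deposited table, no filter, a filter on all arrays, the mean of a gene's probes, a replicate block, spike-in scaling, fits of 4 arrays, and leaving out each array. Figures were drawn with matplotlib 3.10.9.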

Additional observations from a re-analysis of the deposited data

Results flagged for a closer look

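The change with age differed between strains for 3 genes named in the text, by a test of the difference itself (KKAy change minus C57BL/6J change, log2). For Ccnd1 the difference was -1.51 (adjusted p = 0.00689 by limma). For Ccnf it was -1.41 (adjusted p = 0.0354). For Eda2r it was 3.74 (adjusted p = 0.0169), taken between values of which only those of KKAy at 11 weeks were well above background on both arrays, so its size is not fixed. Eda2r entered the test through that group alone, so its difference is a description rather than an independent result.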

How the results depend on the processing

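Over the tested genes in 5 comparisons, 1109 values under alternatives stayed past the threshold in the same direction, 58 gained and 179 lost the call, and 0 called values changed sign. A further 1870 values were past the threshold neither as reported nor under the alternative, and 147 of these had the other sign. Of the 27 genes called lower with age in both strains, 18 kept both calls without each single array and 16 under every alternative run. With normexp the median changes over the 40 genes were -1.07 in KKAy and -1.18 in C57BL/6J, and with the mean of a gene's probes -1.91 and -2.08, which includes probes never above background. Scaling to the spike-in controls moved the median over all genes tested to -0.16 for age in KKAy and to 0.30 and 0.10 for strain at 4 and 11 weeks, and turned the median strain change at 4 weeks to 0.26. Without a filter the interaction gave 1 gene, the strain comparison 4 at 11 weeks and 1 at 4 weeks, with more genes tested. From the 4 arrays of a comparison alone, the strain comparison gave 4 at 11 weeks and 3 at 4 weeks, and age 22 in KKAy. With only probes above background on all arrays, 23 genes fell in KKAy and 20 in C57BL/6J, of fewer tested.

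As single arrays were left out, where the lone array is assumed to vary like the other groups, the genes lower with age numbered 23 to 30 in KKAy and 22 to 30 in C57BL/6J, those with an interaction 0 to 3, and those differing by strain 3 to 6 at 11 weeks and 1 to 8 at 4 weeks. The median changes ran from -2.37 to -2.07 for age in KKAy, from -2.50 to -2.36 in C57BL/6J, from 0.0064 to 0.15 for the interaction, from 0.15 to 0.34 for strain at 11 weeks and from -0.066 to 0.0017 at 4 weeks.

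Same-numbered arrays of different groups deviated together (r over genes 0.53 to 0.676 in 6 pairs of groups), but the labels give 2 numbers and no reason for a pairing. With the replicate number as a block, 32 genes fell with age in KKAy and 31 in C57BL/6J, 9 had an interaction, and 23 at 11 weeks and 17 at 4 weeks differed by strain. The block also raised the calls over all genes tested, to 53.9% and 35.6% for age in KKAy and C57BL/6J, 31.3% for the interaction, and 55.1% and 44% for strain at 11 and at 4 weeks. Dim genes at 11 weeks limit the depth of decline that can be read.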
